A study of Mus musculus with 2 samples.

Results

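The genes described here are the canonical histone genes of the mouse, the tandem families that supply the bulk of chromatin protein to dividing cells. They were taken from the deposited gene list by symbol, as every name that begins with Hist1h, Hist2h, Hist3h or Hist4h, with names marked as pseudogenes by -ps left out. This gave 69 genes of 55450, and 37 of them had at least 1 UMI (unique molecular identifier, 1 count per captured RNA molecule) per 1000 microglia. The study profiled microglia, the resident macrophages of the brain, by droplet single-cell RNA sequencing with 3′ end capture (10x Chromium, v3 chemistry). The animals were adult male C57BL/6J mice, an inbred strain whose genotype the labels give as C57. The awake group was 3 mice injected with normal saline, and the anesthesia group was 3 mice injected with 100 mg/kg sodium pentobarbital, a barbiturate anesthetic. In both groups brain cells were dissociated with collagenase and sorted as CD11b+ CD45low, the usual gate for microglia, and each group is 1 library. Each comparison between the libraries therefore has no replicate and no p-value, and an effect of the drug cannot be told apart from a difference between the libraries. The 95% intervals given with the values cover counting error only.

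Canonical histone genes encode the linker histone H1 and the core histones H2A, H2B, H3 and H4, and their expression is known to peak in S phase, when newly made DNA is wrapped into nucleosomes. Their messages are unusual among mRNAs, because most end after a conserved stem-loop, bound by the protein Slbp, in place of a poly(A) tail. Capture with oligo(dT) reads tails, so it is known to miss such ends and to see mainly the polyadenylated forms that some of these genes also make, among them in cells that no longer divide. The files count captured molecules and hold no measurement of the tail itself, so that the counted transcripts were polyadenylated is inferred from the capture chemistry alone.

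The stem-loops and poly(A) signals of 5 members are shown because the levels are set below against where the annotated transcript ends, past the loop or at it. The sequences are from the GENCODE M21 transcripts (GRCm38), written 5′ to 3′ on the transcript strand, and capitals mark the stem-loop core of 16 bases or the poly(A) signal.
Hist1h1c stem-loop: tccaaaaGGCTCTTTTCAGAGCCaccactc
Hist1h1c poly(A) signal: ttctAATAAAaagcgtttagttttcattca
Hist3h2a stem-loop: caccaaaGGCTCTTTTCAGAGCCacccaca
Hist3h2a poly(A) signal: gcccAATAAAataagagtacgtgtataaca
Hist1h2be poly(A) signal: tgtgttccttATTAAAgcattcctgattga
Hist1h4d stem-loop: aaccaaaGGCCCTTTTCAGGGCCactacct
Hist1h2ap stem-loop: aaaaaaaGGCTCTTTTCAGAGCCatc
The annotated transcript of Hist1h1c continued for 840 bases past its loop, that of Hist3h2a for 1643 bases and that of Hist1h4d for 770 bases. The transcript of Hist1h2ap ended 3 bases after its loop. The same core, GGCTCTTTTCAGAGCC, was found in 25 members of the H1, H2A, H2B and H3 types, whereas 7 members, all of the H4 type, carried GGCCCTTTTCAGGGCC.

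The awake library held 8600 barcodes and 53262885 UMIs, and the anesthesia library 9412 barcodes and 61139016 UMIs, with 14 barcodes in common. After filtering and clustering without histone genes, 7417 awake and 8381 anesthesia cells fell in clusters called microglia-like from their markers (P2ry12, Tmem119, Cx3cr1 and 7 others, all 10 seen in at least 25% of the cells of each cluster). They were 90.2% and 93.7% of the cells kept, with medians of 6003 and 5483 UMIs, and their median mitochondrial shares were 1.32% and 2.15% in the same order. Values below are over these cells unless another class is named, and levels are in CPM, the UMIs of a gene scaled to a common total over the summed cells. Paired values are in the order awake, anesthesia, and log2 ratios are anesthesia over awake. Since the assay counts the end of each molecule once, a level does not scale with transcript length.

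Of the 69 genes, 59 had at least 1 UMI in the 15798 microglia-like cells. The 37 genes at or above 1 UMI per 1000 cells held 99.5% of the 20048 canonical histone UMIs. Counts were concentrated further: Hist1h2bc alone held 22.7% of them, and 5 genes (Hist1h2bc, Hist1h1c, Hist3h2a, Hist1h4d and Hist1h1e) held 68.9%. Just inside the threshold were Hist2h2ab, Hist1h2bb and Hist1h2ab, each with 16 UMIs (1.01 per 1000 cells). Just outside it were Hist2h3b and Hist1h3i with 15 UMIs each (0.949 per 1000) and Hist1h2br with 10 UMIs (0.633 per 1000). Altogether 22 genes had a UMI but fell under the threshold. The 10 genes at 0 were Hist2h3c1, Hist1h3h, Hist1h2aj, Hist1h2bq, Hist1h2ah, Hist1h2ag, Hist1h3g, Hist1h3b, Hist1h2ba and Hist1h2aa, and the limit of 3 counts over the cells of both libraries allows up to 0.190 UMIs per 1000 cells for each. Hist1h2ba and Hist1h2aa are the testis-specific forms of H2B and H2A.

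By histone type, the genes at or above the threshold were 4 of 6 H1, 10 of 20 H2A, 11 of 18 H2B, 5 of 12 H3 and 7 of 13 H4 genes. H2B held 29.3% of the canonical UMIs, H1 27.5%, H2A 22.2%, H4 17.2% and H3 only 3.85%. The linker histone type thus contributed more UMIs from 4 genes than the H2A type did from 10. By locus, the large Hist1 cluster on chromosome 13 had 27 of its 56 genes at or above the threshold and 80.5% of the UMIs. The Hist2 cluster on chromosome 3 had 7 of 10 genes and 5.61% of the UMIs. Both genes of the Hist3 locus on chromosome 11 and the single Hist4 gene on chromosome 6 were above it, with 11.6% and 2.27% of the UMIs. Within the Hist1 cluster the genes lie in separate blocks, and the UMIs were uneven between them. The block at chr13:23531050-23934851 had 22 of 31 genes at or above the threshold and 92.0% of the UMIs of the locus, whereas the block at chr13:21715763-22043676 had 5 of 24 genes and 7.95%.

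**Figure D1:**
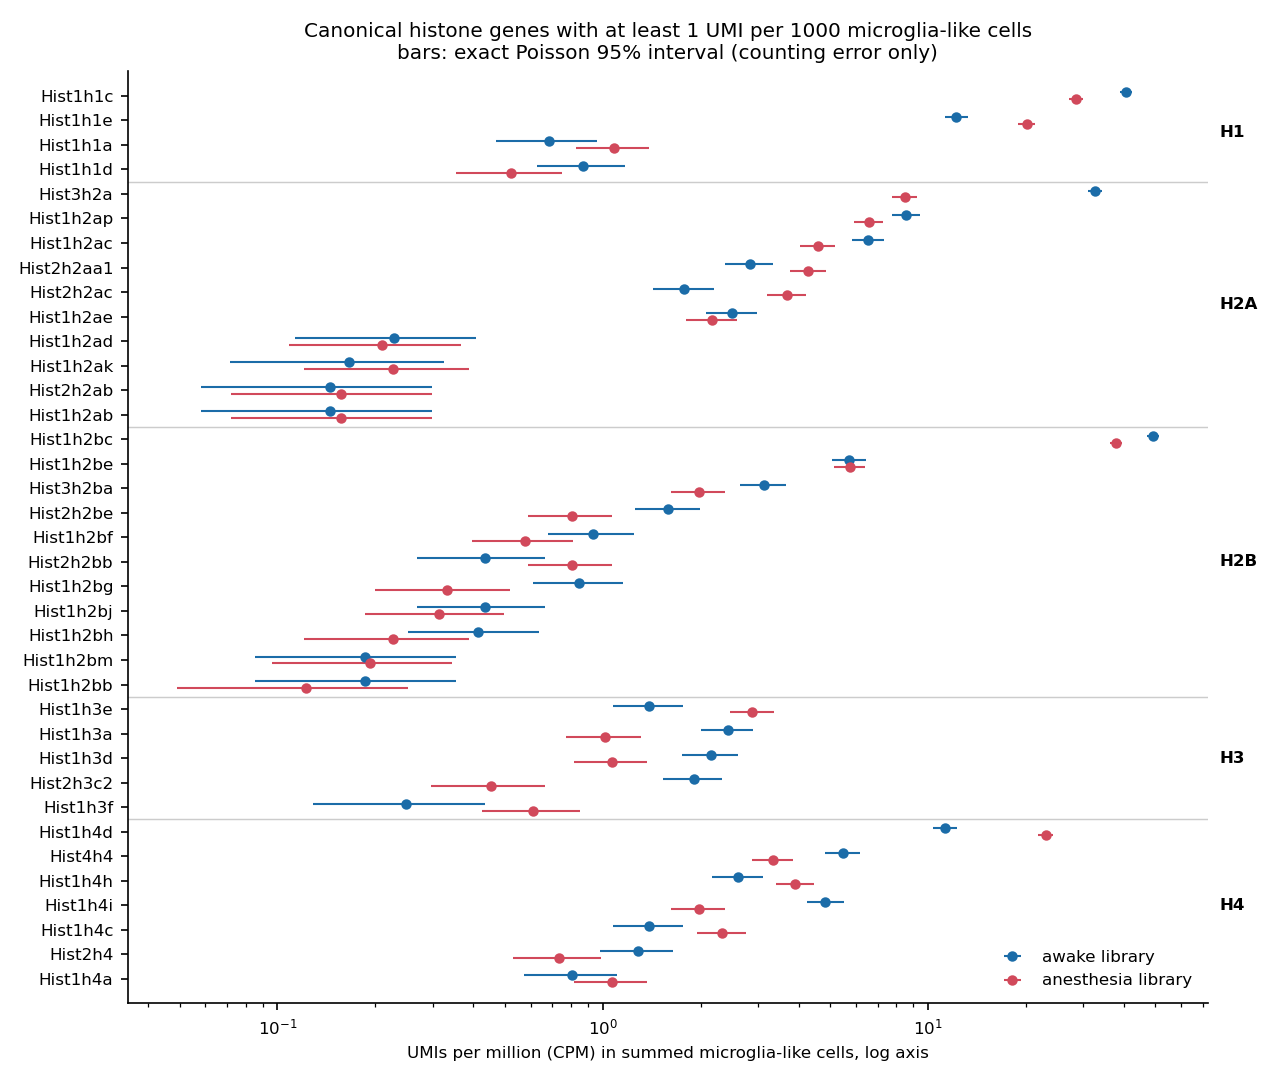
Levels of the 37 canonical histone genes with at least 1 UMI per 1000 microglia-like cells, in CPM on a log axis, in the awake (blue) and the anesthesia (red) library, 1 library each, with exact Poisson 95% intervals. Hist1h2bc and Hist1h1c lead in both libraries, at 49.1 and 40.7 CPM in the awake one, while Hist3h2a lies next to them in the awake library at 32.6 CPM and at 8.47 CPM in the anesthesia library.

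H1, the linker histone that binds DNA where it enters and leaves the nucleosome, was represented mainly by Hist1h1c and Hist1h1e. Hist1h1c (chr13:23738808-23740367, plus strand, 1 exon) had 1965 and 1633 UMIs, or 40.7 and 28.5 CPM. Hist1h1e (chr13:23620629-23622558, minus strand, 1 exon) had 591 and 1152 UMIs, or 12.2 and 20.1 CPM. The main H1 genes thus went in opposite directions: the log2 ratio was -0.51 (95% interval -0.61 to -0.42) for Hist1h1c and 0.72 (0.57 to 0.86) for Hist1h1e. Hist1h1a had 33 awake and 62 anesthesia UMIs and Hist1h1d 42 and 30. The 3′ end of Hist1h1e overlaps Hist1h2be on the same strand. Of the 50-base stretches in its last 500 bases, 99.1% are shared with other genes' transcripts, so its count is uncertain.

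H2A, which pairs with H2B in the nucleosome core, had the gene with the widest gap between the libraries among the 17 members with at least 200 UMIs. Hist3h2a (chr11:58954685-58956830, plus strand, 1 exon) had 1575 and 485 UMIs, or 32.6 CPM (31.0 to 34.2) and 8.47 CPM (7.73 to 9.26). Its log2 ratio was -1.94 (-2.09 to -1.80), a level 3.85-fold higher in the awake library. Hist3h2a overlaps Trim17 on the same strand, and Trim17 itself went the other way with 32 awake and 98 anesthesia UMIs. Hist1h2ap, the gene whose transcript stops at the loop, had 414 and 376 UMIs (8.56 and 6.57 CPM) with a log2 ratio of -0.38 (-0.59 to -0.18). Of its 50-base stretches, 93.1% are shared with other genes, H2A genes among them, so its count is uncertain. Hist1h2ac had 317 and 262 UMIs, with a log2 ratio of -0.52 (-0.76 to -0.28). Hist2h2aa1 (137 and 245 UMIs, 0.59) shares 100.0% of the 50-base stretches in its last 500 bases with other genes, Hist2h2aa2 among them. It also overlaps Gm20634, which went the other way with 851 awake and 312 anesthesia UMIs, so the count of Hist2h2aa1 is uncertain too. Hist2h2ac stood at 86 awake and 211 anesthesia UMIs, a log2 ratio of 1.05 (0.68 to 1.43), and Hist1h2ae at 121 and 124 UMIs, -0.21 (-0.58 to 0.16). The H2A genes with fewer counts were Hist1h2ad, Hist1h2ak, Hist2h2ab and Hist1h2ab, at 16 to 23 UMIs each over both libraries.

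Among H2B genes, Hist1h2bc (chr13:23684199-23692908, plus strand, 2 exons) was the canonical histone gene with the most UMIs in both libraries. It had 2375 and 2171 UMIs, or 49.1 and 37.9 CPM, with a log2 ratio of -0.37 (-0.46 to -0.29). Hist1h2be had 277 and 329 UMIs at 5.73 and 5.75 CPM, a log2 ratio of 0.00 (-0.23 to 0.24). Hist3h2ba, which neighbours Hist3h2a on chromosome 11, had 151 and 113 UMIs with -0.66 (-1.03 to -0.30) on the log2 scale. Both Hist3 genes were therefore lower in the anesthesia library, Hist3h2a by more. Within clusters of cells Hist3h2ba was at 0.41, a value without an interval. It had only 0 to 3 UMIs in the smaller library of each of clusters 0 to 4. The remaining H2B genes above the threshold were Hist2h2be (77 and 46 UMIs), Hist1h2bf (45 and 33), Hist2h2bb (21 and 46), Hist1h2bg (41 and 19), Hist1h2bj (21 and 18), Hist1h2bh (20 and 13), Hist1h2bm (9 and 11) and Hist1h2bb (9 and 7). Hist2h2bb overlaps Gm42743 on the same strand.

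H3 and H4 form the tetramer at the centre of the nucleosome, and H3 was the least represented type. Hist1h3e had 67 awake and 165 anesthesia UMIs (1.39 and 2.88 CPM), a log2 ratio of 1.06 (0.64 to 1.49). Of the 50-base stretches in its last 500 bases, 78.0% are shared with Hist1h3f and other H3 genes. Hist1h3a (117 and 58 UMIs), Hist1h3d (104 and 61) and Hist2h3c2 (92 and 26) lay the other way, and Hist1h3f had 12 and 35 UMIs. Hist1h4d (chr13:23581598-23582735, plus strand, 1 exon) was the leading H4 gene. It had 545 awake and 1319 anesthesia UMIs, or 11.3 CPM (10.3 to 12.3) and 23.04 CPM (21.8 to 24.3), a log2 ratio of 1.03 (0.89 to 1.18). Hist1h4h (126 and 224 UMIs) and Hist1h4c (67 and 133) were also higher in the anesthesia library, at log2 ratios of 0.59 (0.26 to 0.91) and 0.74 (0.31 to 1.19). Hist1h4i (234 and 113 UMIs) and Hist4h4 (264 and 191) were lower there, at -1.29 (-1.63 to -0.96) and -0.71 (-0.99 to -0.44). Hist2h4 had 62 and 42 UMIs and Hist1h4a 39 and 61.

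Ratios were counted over the 17 members with at least 200 UMIs, called measured. Of these, 7 were at least 1.5-fold higher and 4 at least 1.5-fold lower in the anesthesia library, and 6 lay between. Over all 11414 genes with at least 200 UMIs, 13.4% were at least 1.5-fold higher and 11.9% at least 1.5-fold lower. The 7 higher genes were Hist1h3e, Hist2h2ac, Hist1h4d, Hist1h4c, Hist1h1e, Hist2h2aa1 and Hist1h4h, and the last pair lay close to the limit, each at a log2 ratio of 0.59. The 4 lower genes were Hist3h2a, Hist1h4i, Hist4h4 and Hist3h2ba. Over the 17 genes the median was -0.21 on the log2 scale, against -0.01 over all measured genes. The 20 genes with fewer UMIs ranged from -2.07 (Hist2h3c2) to 1.30 (Hist1h3f) with a median of -0.54.

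**Figure D2:**
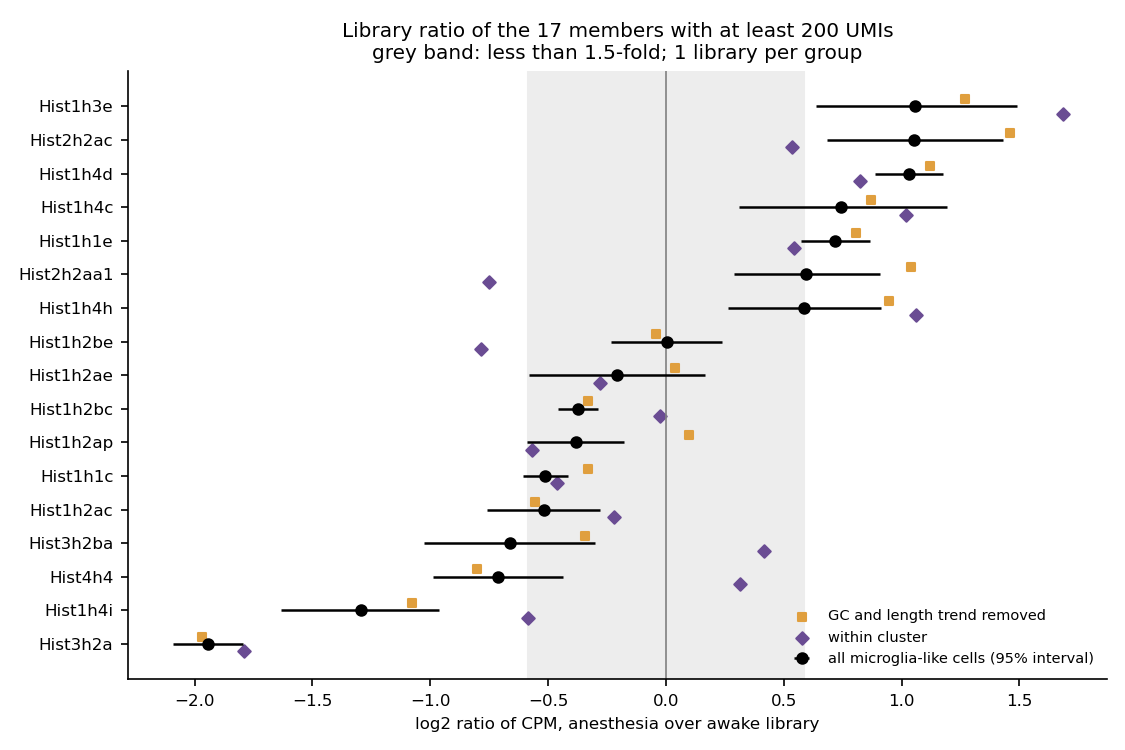
Log2 ratio of CPM, anesthesia over awake library, for the 17 canonical histone genes with at least 200 UMIs, with exact 95% intervals, beside the same ratio after removal of a GC and length trend and within clusters of cells. Hist3h2a lies at -1.94 and keeps a ratio of -1.79 within clusters, whereas Hist2h2aa1, Hist4h4 and Hist3h2ba turn to the other side within clusters and Hist1h2be moves from 0.00 to -0.78.

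Summed over all members, canonical histone transcripts reached 209.6 and 173.1 CPM (10134 and 9914 UMIs), which is -0.28 (-0.32 to -0.24) on the log2 scale. Without Hist3h2a the ratio was -0.10 (-0.15 to -0.06), so that 1 gene carried most of the difference. The sums of H2A, H4 and H1 leaned on their leading genes too. H2A stood at 55.7 and 30.7 CPM, a log2 ratio of -0.86 (-0.95 to -0.77), and at -0.06 (-0.18 to 0.06) without Hist3h2a. H4 stood at 27.8 and 36.6 CPM, 0.40 (0.30 to 0.49), and turned to -0.29 (-0.43 to -0.14) without Hist1h4d. H1 stood at 54.5 and 50.3 CPM, -0.12 (-0.19 to -0.04), and turned to 0.65 (0.52 to 0.79) without Hist1h1c. H2B (63.3 and 49.2 CPM, -0.36) and H3 (8.36 and 6.43 CPM, -0.38) kept their direction without their leading genes, at -0.32 and -0.98. No type moved as a unit: each of the 5 held genes above the threshold with ratios on both sides of 0. By locus, the Hist3 sum had a log2 ratio of -1.77 (-1.91 to -1.64), while the Hist1 sum was at -0.10 (-0.14 to -0.05) and the Hist2 sum at 0.13 (-0.04 to 0.31).

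Of the 11 members past 1.5-fold, 10 kept the call and its direction after a GC and length trend was removed, 10 in cells with at most 10000 UMIs and 10 without cycling cells. Within clusters of cells only 5 kept it. That comparison rests on few cells, because clusters 0 to 4 split almost wholly by library and only 296 of their cells came from the smaller library in each. How many of all measured genes past 1.5-fold kept their call under these settings was not counted. Whether the members differ from other genes in this is therefore not known. Within clusters Hist3h2a kept -1.79 and Hist1h4d 0.82, while Hist4h4 (0.31), Hist2h2aa1 (-0.75) and Hist3h2ba (0.41) changed sides. In the smaller library of each of clusters 0 to 4, Hist4h4, Hist2h2aa1 and Hist3h2ba had 0 to 3 UMIs each. The values within clusters carry no interval. Hist1h2be, level between the libraries at 0.00, stood at -0.78 within clusters.

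Single cells held few of these transcripts. At least 1 canonical UMI was found in 65.1% and 57.8% of cells, and the most in any microglia-like cell was 21. With each cell thinned to 2000 UMIs (7341 awake and 8202 anesthesia cells, 76 and 179 shallower cells left out), the share of cells with Hist3h2a was 6.28% (5.74 to 6.86) awake, against 1.52% (1.27 to 1.81). Unthinned, the shares were 18.3% and 5.32%. For Hist1h4d it was 2.26% (1.93 to 2.63) and 4.27% (3.84 to 4.73), with 6.43% and 13.5% unthinned, and for Hist1h2bc 8.91% and 7.16%, with 24.4% and 19.7% unthinned. The shares followed the order of the levels between libraries for each of these genes. No cell type lacks histone genes, so no class gives the background of free RNA. In endothelial-like cells (106 awake and 112 anesthesia cells after thinning, medians of 5507 and 4535 UMIs before it) the shares were 7.55% and 3.57% for Hist3h2a, 1.89% and 2.68% for Hist1h4d and 22.6% and 20.5% for Hist1h2bc.

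The annotated end of the transcript differed between the genes that were seen and those that were not. Some models stop at the stop codon with 0 annotated bases past it, such as Hist1h2ak above the threshold and Hist1h3h and Hist1h4k below it. The split is therefore one of annotated models, which need not hold the whole message, and the part of cut models in the counts was not tested. The transcript ran for a median of 503 bases past the stop codon in the 17 measured members, 89.5 bases in the other 20 above the threshold and 74.5 bases in the 30 coding members below it. The 28 coding members with at least 150 bases past the stop codon included 22 above the threshold and held 87.7% of the canonical UMIs. The 39 with under 150 bases included 15 above it and held 12.3%. Hist1h2ap (57 bases), Hist1h4h (93), Hist2h2ac (94) and Hist2h2aa1 (109) were the measured members in the shorter class. In the longer class, Hist1h2br, Hist1h4j, Hist1h1t, Hist1h2bp, Hist1h2bq and Hist2h3c1 stayed below the threshold. Sequence sharing with other genes was scored over the last 500 bases of the longest transcript. Over 50% of the 50-base stretches were shared in 26 of the 32 members below the threshold and 14 of the 37 above it. That window holds mostly bases past the stop codon where the end is long, and mostly coding sequence where it is short. Sharing is thus tied to the length of the end by the window, and these counts do not separate them. Reads that match several genes equally are commonly dropped in counting, and the part of such sharing in the low counts was not tested.

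A stem-loop, searched as a 16-base hairpin by the known consensus on the transcript strand, was found in 45 of the 69 members (65.2%) and in 16 of the 17 measured ones, against 0.130% of the 55381 other genes. The exception was Hist1h2bc, the gene with the most UMIs, in whose 742 annotated bases past the stop codon no such hairpin was found. A poly(A) signal, AATAAA or ATTAAA on the transcript strand within the last 50 bases, was found in 16 members (23.2%) and in 8 of the 17 measured ones (47.1%), against 38.3% of other genes and 69.5% of the other measured genes. A match is only a string in the annotated transcript, and its absence shows only that the letters are not in that window. In 12 of the 17 measured members the transcript ran at least 100 bases past the loop, as far as 2445 bases in Hist4h4.

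**Figure D3:**
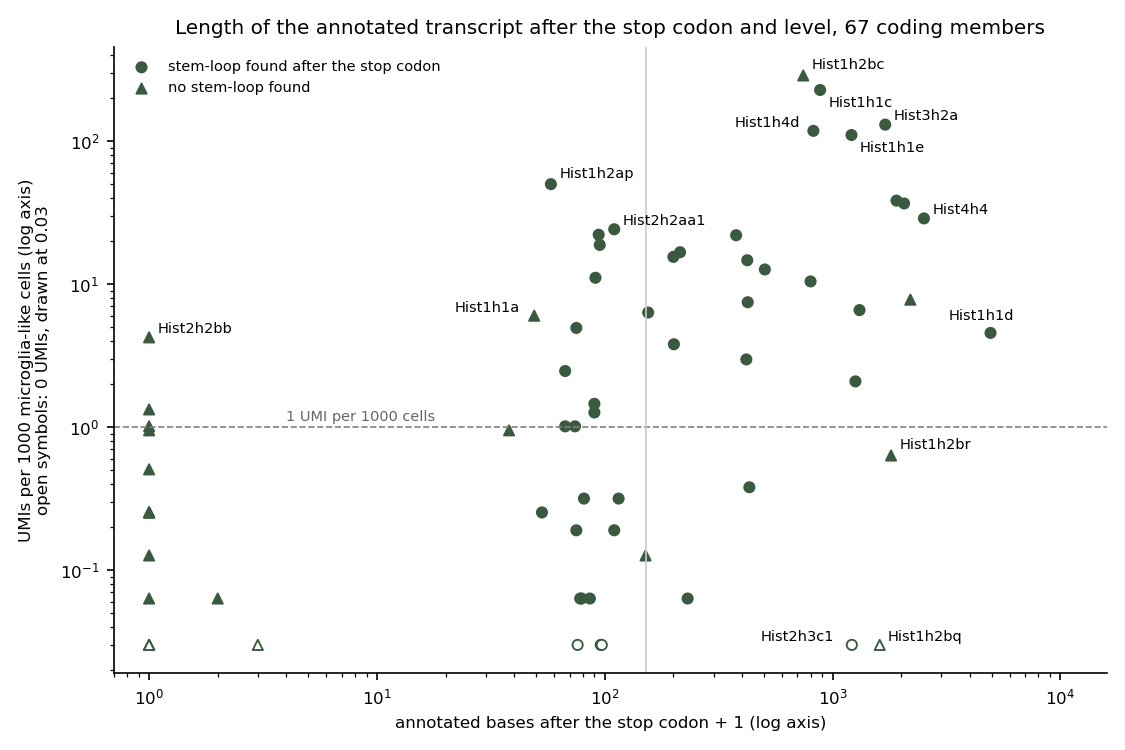
Annotated bases after the stop codon (plus 1, log axis) against UMIs per 1000 microglia-like cells (log axis) for the 67 coding canonical histone genes, circles with and triangles without a stem-loop after the stop codon, open symbols for genes with 0 UMIs. The genes with the most UMIs lie right of the grey line at 150 bases, and Hist1h2ap is the highest gene left of it at 50.01 UMIs per 1000 cells.

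Many histone genes start head to head with a partner and may share regulatory sequence, so their levels were set side by side. With starts at most 1000 bases apart on opposite strands, 14 pairs were found, 13 of them H2A with H2B, and both partners were above the threshold in 5. Hist1h2ac and Hist1h2bc, 251 bases apart, had 579 and 4546 UMIs, and their library ratios lay on the same side at -0.52 and -0.37. Hist2h2ac and Hist2h2be, 239 bases apart, had 297 and 123 UMIs and opposite log2 ratios of 1.05 and -0.99. Hist1h2ap, with 790 UMIs, starts 236 bases from Hist1h2br, which had 10. Hist1h2bh and Hist1h3f, 660 bases apart, had similar counts of 33 and 47 UMIs and opposite log2 ratios of -0.87 and 1.30.

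Levels differed between clusters of 1 library as well. In the awake library cluster 0, led by Klf2, Tsc22d3 and Jund, had 255 CPM of canonical histone transcripts, and cluster 2, led by Sbno2, Gadd45b and Socs3, had 173.5 CPM, a log2 ratio of 0.56 (0.50 to 0.61). Hist1h2bc (50.5 and 49.98 CPM) and Hist3h2a (35.4 and 31.2 CPM) were nearly level between these clusters. Hist1h2ac stood at 11.2 and 2.03 CPM, a 5.52-fold difference, Hist1h2ae at 3.87 and 1.23 CPM, Hist1h2ap at 13.5 and 4.31 CPM and Hist1h1e at 18.5 and 6.63 CPM. In the anesthesia library cluster 3, led by Ccl4, Ccl3 and Gpr183, had 209 CPM and cluster 4, led by Gadd45b, Cxcl2 and Cd83, 123 CPM, a log2 ratio of 0.76 (0.67 to 0.86). Here Hist1h1e stood at 31.3 and 7.41 CPM, Hist1h3e at 3.93 and 0.95 CPM and Hist1h2ap at 9.53 and 2.37 CPM. Hist3h2a was again nearly level, at 8.73 and 8.26 CPM. Hist3h2a, with the widest ratio between libraries of the 17 members with at least 200 UMIs, thus differed little between these clusters of 1 library. Median depths relative to the library were 0.918 and 1.112 in clusters 0 and 2 and 0.901 and 1.017 in clusters 3 and 4, and their part in these differences was not tested. Hist3h2a was lower in the anesthesia library in each of the 7 microglia-like clusters, with 17.9 to 45.4 CPM in awake and 2.90 to 12.5 CPM in anesthesia cells, and the ranges did not overlap. Some of these values rest on 1 to 10 UMIs.

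**Figure D4:**
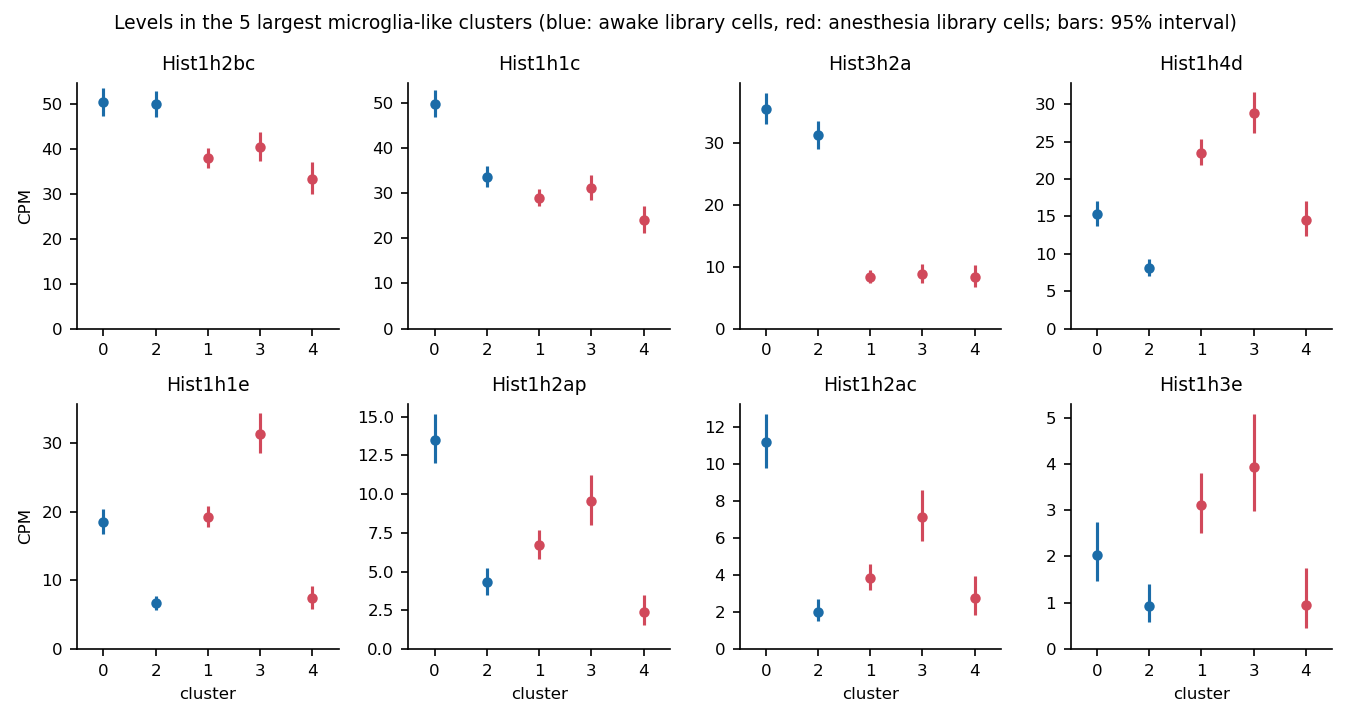
Levels of selected canonical histone genes (Hist1h2bc, Hist1h1c, Hist3h2a, Hist1h4d, Hist1h1e, Hist1h2ap, Hist1h2ac and Hist1h3e), in CPM, in the 5 largest microglia-like clusters, each for the library that holds most of its cells (awake blue, anesthesia red), with exact Poisson 95% intervals. Other measured members are not shown, such as Hist1h2be at 5.93 and 6.93 CPM in anesthesia cells of clusters 3 and 4. Hist3h2a separates the libraries in the clusters shown, whereas Hist1h1e and Hist1h2ap separate clusters 0 from 2 and 3 from 4 within a library.

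Other cell classes in the sort shared the order of Hist3h2a but not of every gene. Its log2 ratio was -1.60 (-2.75 to -0.55) in endothelial-like cells (28 and 11 UMIs), -1.25 (-2.31 to -0.25) in border-associated macrophage-like cells (25 and 14 UMIs) and -0.88 (-2.78 to 1.02) in choroid plexus or ependymal-like cells (6 UMIs in each library). The border-associated macrophage-like cluster also held 19 proliferating cells, described below, and without them Hist3h2a was at -1.55 (-2.78 to -0.43). Hist1h4d was at 0.01 (-1.96 to 2.06) in endothelial-like cells. In border-associated macrophage-like cells it had 8 and 36 UMIs, 1.76 (0.63 to 3.07) on the log2 scale, and without the proliferating cells 7 and 19 UMIs, 1.15 (-0.16 to 2.65), an interval that includes 0. Hist1h1c, lower in the anesthesia library in microglia-like cells, was higher in endothelial-like cells, with 51 and 187 UMIs and a ratio of 1.62 (1.17 to 2.10). Choroid plexus or ependymal-like cells had the highest sums, 892 CPM awake and 711 CPM anesthesia, of which Hist1h2bc alone made 466 and 384 CPM.

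Since these genes are known for S phase, cycling cells were compared with the rest. A microglia-like cell was called cycling when it had UMIs of at least 3 of 51 listed S and G2/M genes, none of them a histone gene. The rule took 58 awake and 162 anesthesia cells, and they were deep cells: their medians were 9073.5 and 14580.5 UMIs, against 5992 and 5454 in the others. The listed genes made 2.38 of each 10000 UMIs in them, against 0.562 in the others. In the 20 proliferating cells described below it was 57.1, and most of those lie outside the microglia-like clusters and so outside this class. The comparison is thus of mainly deep cells with few listed UMIs. Canonical histone transcripts were no higher in the cells this rule took, at 151 CPM against 210 CPM awake and 168 CPM against 173.5 CPM under anesthesia. With both libraries summed the log2 ratio of cycling over non-cycling cells was -0.21 (-0.33 to -0.10). This sum mixes in the difference between the libraries, and compared within libraries the ratio was -0.12. By library it was -0.48 (-0.80 to -0.18) awake and -0.05 (-0.18 to 0.08) under anesthesia, where the interval includes 0. Cycling cells held 3.16% of the canonical UMIs and 3.63% of all UMIs. Of the 17 measured members 1, Hist2h2ac, was at least 2-fold higher in them (22 UMIs, 5.73 against 2.70 CPM), and 0.745% of all measured genes were. Within the awake library it was at 1.51 (-0.79 to 3.11) from 3 cycling UMIs and within the anesthesia library at 0.73 (-0.04 to 1.41) from 19, so that no member was past 2-fold in both libraries. Of all measured genes 3.53% were past this fold in the awake library, and 0.569% under anesthesia. Hist3h2a stood at 28.1 against 32.6 CPM in awake cells and at 5.87 against 8.63 CPM in anesthesia cells, with intervals of the log2 ratio that include 0 in both. The rule is a range and not a type: 46 awake and 113 anesthesia cells lay at exactly 3 genes, and 271 and 457 at 2. The part of depth in this comparison was not tested beyond the thinned value given under the processing alternatives.

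A stricter class, chosen after the data were seen, took cells of any cluster except the neutrophil-like one with at least 10 listed genes and more microglia than border-associated macrophage marker UMIs. It held 9 awake and 11 anesthesia cells, called proliferating here. Of these, 19 lay in cluster 8, the border-associated macrophage-like cluster, and 1 in cluster 10. Each had 30 to 1334 UMIs of the microglia markers and 0 to 15 of the border-associated macrophage markers. The deepest held 73030 UMIs, 37 of them canonical, and the part of doublets was not tested. Their canonical histone level was 537 CPM (460 to 623) against 191 CPM in non-cycling microglia-like cells, a log2 ratio of 1.49 (1.27 to 1.71). By phase of the listed genes, the 16 cells with most of their listed UMIs from G2/M genes held 169 of the 173 canonical UMIs and stood at 624 CPM, a log2 ratio of 1.71 (1.48 to 1.93). The 4 cells with most from S phase genes held 4 UMIs, 77.5 CPM, at -1.30 (-3.18 to 0.06). Of these 4 cells 3 were from the awake library. The lists hold 18 S phase and 33 G2/M genes, and the split takes no account of this. Among the 16 cells, the one with the most canonical UMIs held 34 S phase UMIs and another held 51, against 10 to 19 in the 4 cells. The split therefore does not tell in which phase the transcripts lie. By library the log2 ratio of the whole class was 1.55 awake and 1.51 under anesthesia. Single cells ranged from 0 to 6516 CPM in the awake library, with a median of 111, and from 111 to 1064 in the anesthesia library, with a median of 441. The highest awake cell alone held 38 of the 69 awake UMIs, and without it the ratio was 1.16 (0.91 to 1.40) over both libraries and 0.47 (-0.09 to 0.97) in the awake library.

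The members differed in these cells. Hist1h2ap had 41 UMIs, 127 CPM against 7.42 CPM, a log2 ratio of 4.10 (3.61 to 4.55), and lay high in both libraries, at 4.76 awake and 3.47 under anesthesia. Hist1h2ae had 5 UMIs in each library, at 4.15 (2.50 to 5.41) and 3.43 (1.79 to 4.70), and Hist1h1e 6 and 12 UMIs, at 2.11 (0.66 to 3.24) and 1.49 (0.53 to 2.30). Hist1h4d was uneven: its 18 UMIs were 1 awake and 17 anesthesia, at -0.34 (-5.65 to 2.14) and 1.79 (1.01 to 2.48). The most abundant genes outside the cycle had intervals that include 0 over both libraries: Hist1h2bc was at -0.64 (-1.77 to 0.29), Hist3h2a at -0.36 (-1.98 to 0.87) and Hist1h1c at -0.14 (-1.20 to 0.74). In all, 10 of the 17 measured members were at least 2-fold higher, with 9.86% of all measured genes past the same fold, and 10 also without the highest cell. By library it was 7 members awake, with 15.7% of all measured genes, and 10 under anesthesia, with 11.2%. In both libraries 6 members were past it. Of these, Hist1h4h and Hist2h2ac had 1 UMI in the awake cells and Hist1h4i 1 in the anesthesia cells, with intervals there that include 0. With the libraries summed, Hist3h2ba and Hist1h4c passed on 2 UMIs and Hist1h3e on 3, again with intervals that include 0. Hist1h1b, an H1 gene below the threshold of 1 UMI per 1000 in microglia-like cells that was chosen after its values were seen, had 19 UMIs here against 3 in all non-cycling cells.

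Members with under 150 annotated bases past the stop codon stood at 261 against 22.99 CPM in the proliferating cells, a log2 ratio of 3.50 (3.17 to 3.82). Of their 84 UMIs, 60 came from Hist1h2ap and Hist1h1b, and without these genes the ratio was 2.26 (1.61 to 2.84). Members with at least 150 bases stood at 276 against 168 CPM, 0.72 (0.40 to 1.02). Without the highest cell the classes were at 2.99 (2.59 to 3.37) and 0.54 (0.19 to 0.86). Genes of both classes lay high: 3 of the 4 measured members with the shorter end were at least 2-fold higher, Hist2h2aa1 being the other, and 7 of the 13 with the longer end, Hist1h2ae, Hist1h4i and Hist1h1e among them. In the 9 neutrophil-like cells with at least 10 listed genes Hist1h2ap had 102 UMIs, at a log2 ratio of 6.27 (5.96 to 6.57) against the same non-cycling microglia-like cells, and Hist1h1b 21 UMIs.

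**Figure D5:**
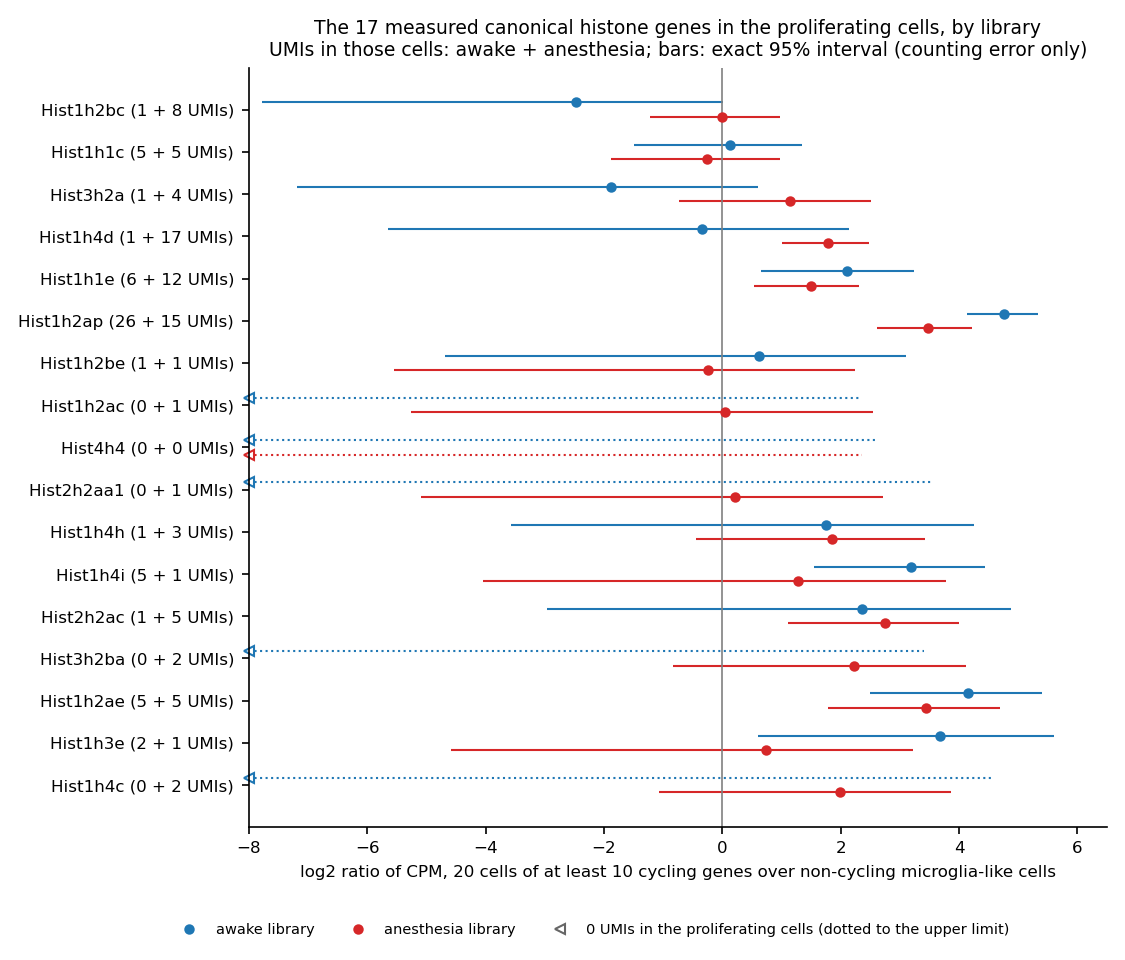
Log2 ratio of CPM, 20 cells with at least 10 cycling genes over non-cycling microglia-like cells of the same library, for the 17 canonical histone genes with at least 200 UMIs in microglia-like cells, in the awake (blue) and the anesthesia (red) library, with exact 95% intervals and open arrows for genes at 0 UMIs in the proliferating cells. Hist1h2ap at 4.76 and 3.47 lies right of 0 in both libraries, Hist1h4d at -0.34 and 1.79 on opposite sides, and many genes rest on 0 to 2 UMIs in a library.

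Genes that act beside the canonical ones were read from lists of histone variants, message processing, chaperones and polyadenylation. Of 9 measured histone variants, none was past 1.5-fold in either direction, against 13.4% (higher) and 11.9% (lower) of all measured genes. Their log2 ratios had a median of -0.24. H3f3b, which encodes the replacement H3 laid down in and outside S phase, had 252251 awake and 249405 anesthesia UMIs, a log2 ratio of -0.26, H3f3a was at -0.26, H2afz at 0.29 and H1f0 at 0.24. Summed, the variants stood at 7183 and 6227 CPM, against the 209.6 and 173.1 CPM of canonical genes. Of 14 measured genes of histone mRNA end formation and decay, 1 was higher and 1 lower: Npat, the activator of histone transcription, at 458 and 890 UMIs (0.71), and Lsm10, a part of the histone end-cutting particle, at 1553 and 1089 UMIs (-0.76). Slbp stood at 14063 and 16538 UMIs, a log2 ratio of -0.01. Of 19 measured histone chaperones 1 was higher, Atrx at 0.59. Of 19 genes of cleavage and polyadenylation 4 were higher and none lower, beside the 13.4% and 11.9% of all measured genes: Pcf11 at 1.01, Papolg at 0.78, Rbbp6 at 0.75 and Cstf3 at 0.65, with a list median of 0.17. In the proliferating cells H2afz was at a log2 ratio of 1.51 and Slbp at 0.42. Among the measured variants Cenpa (4.17), H2afv (2.20) and H2afx (2.12) lay higher still, and only H3f3b was below 0, at -0.18.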

How the data were processed

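Microglia sorted from awake and anesthetized mice were measured as 1 single-cell library per group. The deposited matrices hold raw UMI counts per gene and cell, made by the authors with bcl2fastq and Cell Ranger 3.1.0 on GRCm38, per the submitters' processing notes, while the file headers name Cell Ranger 4.0.0. Cells with at least 500 genes, 1000 UMIs and at most 10% mitochondrial UMIs were kept and clustered (scanpy 1.11.5, leidenalg 0.10.2, Python 3.11.15) without histone genes among the 2000 variable genes. Clusters were named from marker lists, so the names are rebuilt here. No doublet caller was run. Raw UMIs were summed per library over microglia-like cells, as CPM of the summed total, and log2 ratios carry exact conditional binomial 95% intervals (scipy 1.17.1, numpy 2.4.6). The ratio script was tested on simulated data. Transcript ends, stem-loops and poly(A) signals were read from GENCODE M21 transcripts, longest per gene.

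Every member at or above 1 UMI per 1000 cells is named, with both libraries' values in full from 200 UMIs. In each further list, members past 1.5-fold are named, up to 4, beside 6 set genes (Slbp, H3f3a, H3f3b, H2afz, H1f0 and Npat). The members and lists were chosen with earlier results of these data known. Alternatives covered other cell sets, minimum counts, a GC and length trend, clusters, cycling rules and thinning. Library sizes differ (48339434 awake and 57258568 anesthesia microglia-like UMIs), and a gene of 200 UMIs has a wide interval.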

Additional observations from a re-analysis of the deposited data

How the results depend on the processing

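The number of genes at or above 1 UMI per 1000 cells ranged from 33 to 38 over the alternatives (37 in the report), and the median ratio (log2) over measured members from -0.43 to 0.04 (-0.21 in the report). The 7 members at least 1.5-fold higher became 4 in cells of at most 10000 UMIs, where 14 members reach the minimum and, of the 7, Hist2h2aa1 (0.38) fell under the fold, 4 within clusters and 2 with a minimum of 500 UMIs. The 4 lower ones became 9 with a minimum of 100 UMIs and 1 with 500, where fewer or more genes are tested. The share of all measured genes past the fold was not counted under these settings. The summed log2 ratio of -0.28 was -0.14 with a GC and length trend removed, -0.23 within clusters and -0.10 without Hist3h2a, the last chosen after seeing the data. Within clusters Hist4h4 (0.31), Hist2h2aa1 (-0.75) and Hist3h2ba (0.41) turned to the other side, Hist1h2be went from 0.00 to -0.78, and the cause was not tested. These values carry no interval and rest on few cells of the smaller library in clusters 0 to 4.

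The cycling ratio of -0.21 was -0.12 within libraries and -0.36 with cells thinned to 2000 UMIs. It turned to 1.49 with at least 10 listed genes and to 1.16 without the highest awake cell. Among those cells it was 1.71 where most listed UMIs were from G2/M genes. Where most were from S phase genes it was -1.30, on the side of the main value. All of these were chosen after seeing the data. In single libraries it turned to 1.55 (awake) and 1.51 (anesthesia) with at least 10 genes, and in the anesthesia library to 0.028 with at least 2 and 0.041 with at least 5 genes. The share of canonical UMIs in cycling cells, 3.16%, was 10.1% with at least 2 genes, 0.484% with at least 5, 0.883% with at least 10, 0.5848% in cells of at most 10000 UMIs and 1.11% thinned. The 1 member at least 2-fold higher in cycling cells became 0 with at least 2 genes, 2 with at least 5, 2 thinned, and 10 with at least 10 genes, with or without the highest awake cell. Of all 11414 measured genes, 85 were past this fold in the main comparison and 21 with at least 2 listed genes. The number was 618 with at least 5, 502 thinned and 1125 with at least 10, so the count over all genes changed with the rule as well.

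No paired analysis was possible because each group is 1 library. Depth limits the members under 200 UMIs, whose ratios rest on 16 to 175 counts, and the proliferating class, which holds 173 canonical UMIs in 20 cells.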
